A study of Rattus norvegicus with 8 samples.

Results

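Transcripts for thyroid hormone transport, activation and response were examined in cells of the rat brain isolated by flow cytometry as positive for A2B5, an antibody against gangliosides of immature glia, and OTMP. The 7 genes Slco1c1, Dio2, Dio3, Crym, Thra, Thrb and Hr were chosen by name, and every probe set annotated to exactly 1 of them was taken. This gave 12 of 31142 non-control probe sets, 9 on the array type called chip A and 3 on chip B, and 7 of 13810 genes with a probe set of their own. The cells came from postnatal day 7 brain and are labelled as perineuronal oligodendrocytes, which lie against neuronal cell bodies. Their RNA was read as 4 biological replicates on both Affymetrix array types, 8 arrays in all. All arrays hold this 1 population, with no control samples, and the sources used here give neither the rats' strain and sex nor how many were used per replicate.

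The deposited values were taken to be ratios, set against a reference that no label names, so 1 was read as the level of that reference. A ratio shows neither how bright a probe set was nor whether its transcript was detected, and it does not rank the expression of 1 gene above that of another. Values below are ratios per array and mean log2 ratios ± SD (n = 4). Adjusted p-values are from limma's two-sided test against a ratio of 1, with Benjamini-Hochberg adjustment over all non-control probe sets of an array type at 0.05. Since replicates are pools of sorted cells, fewer cells of a type and less RNA per cell cannot be told apart.

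Thyroid hormone reaches neural cells mainly as thyroxine, which transporters such as Oatp1c1 (the Slco1c1 product) carry across the blood-brain barrier and into astrocytes. Dio2 converts thyroxine into the active triiodothyronine and Dio3 inactivates both hormones. Inside the cell Crym binds triiodothyronine, and the nuclear receptors encoded by Thra and Thrb switch target genes such as Hr. In the rodent brain the hormone promotes the step from oligodendrocyte precursor to myelinating cell.

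Of the 12 probe sets, 7 did not pass the test against the reference. A single probe set, of Thra, was higher than 1, and 4 were lower, at geometric mean ratios of 0.562 to 0.647: both chip A probe sets of Thrb, that of Dio3, and the chip B probe set of Thra. On chip A 1 of 9 was called higher, where 9.21% of all probe sets were, and 3 of 9 (33.3%) lower, where 30.1% of all were. On chip B 0 of 3 were higher (0 also at an unadjusted p under 0.05), where 5.08% of all were, and 1 of 3 was lower, where 27.1% of all were. These shares lie near those of the arrays as a whole and do not set the genes apart. The members' median log2 ratio was 0.07 on chip A and -0.02 on chip B, beside -0.11 on both types over all probe sets. None of the 12 stood above the panel level, which is the 95th percentile of genes not expected in brain cells (limma, one-sided, 0 also at an unadjusted p under 0.05). Over all probe sets this held for 1.81% of chip A and 2.81% of chip B.

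The promoter windows of the deiodinases and of Thrb are shown because Dio3 and Thrb were the genes with low ratios on chip A, and Dio2, the activating counterpart of Dio3, was at the reference. Each holds 300 bases around the RefSeq start on GRCr8, most of them before it, 5′ to 3′, with the letters TATAAA in capitals. The Dio2 and Dio3 windows lie at the outer start of the gene in RefSeq, while that of Thrb lies at a start within the gene's span.
Dio2, chr6:115410545-115410844, minus strand: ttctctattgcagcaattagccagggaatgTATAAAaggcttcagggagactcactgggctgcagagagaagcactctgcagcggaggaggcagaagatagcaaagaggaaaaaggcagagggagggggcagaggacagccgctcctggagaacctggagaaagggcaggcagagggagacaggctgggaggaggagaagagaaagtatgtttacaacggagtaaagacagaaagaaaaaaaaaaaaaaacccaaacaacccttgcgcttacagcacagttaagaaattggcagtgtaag
Dio3, chr6:135106822-135107121, plus strand: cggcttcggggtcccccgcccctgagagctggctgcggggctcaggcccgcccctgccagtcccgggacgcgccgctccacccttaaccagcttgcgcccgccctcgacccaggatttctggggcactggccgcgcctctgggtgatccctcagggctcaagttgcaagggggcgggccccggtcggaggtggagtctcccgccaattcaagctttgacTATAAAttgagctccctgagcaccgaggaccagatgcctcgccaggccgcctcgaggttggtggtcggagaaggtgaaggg
Thrb, chr15:10461397-10461696, minus strand: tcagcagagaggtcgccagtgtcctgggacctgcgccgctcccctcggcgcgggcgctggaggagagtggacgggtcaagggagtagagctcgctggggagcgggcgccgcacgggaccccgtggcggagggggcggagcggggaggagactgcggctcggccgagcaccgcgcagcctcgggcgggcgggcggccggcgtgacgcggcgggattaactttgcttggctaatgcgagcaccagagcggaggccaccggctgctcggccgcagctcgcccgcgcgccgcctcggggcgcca
On both strands, TATAAA occurred once in the Dio3 window, 31 bases before the start, once in the Dio2 window, 220 bases before it, and 0 times in that of Thrb. Of 33469 promoters of this length 14.2% held it. The hexamer AGGTCA, the core to which thyroid hormone receptors bind, was in 0 of these windows and in 0 of the Thra windows, against 16.2% of promoters. As a direct repeat, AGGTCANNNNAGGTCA, it occurred in 2 of the 33469. These matches describe letters in the window and were not tested against the ratios.

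**Figure D1:**
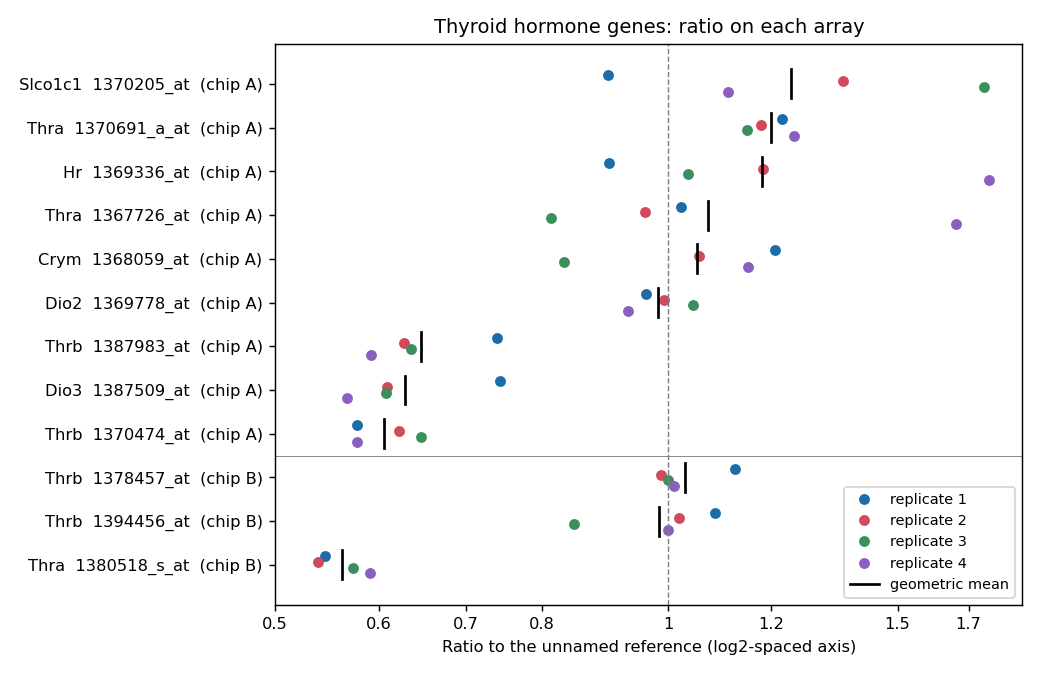
Ratio to the unnamed reference (log2-spaced axis) of each of the 12 probe sets on the 4 arrays of its type, with the geometric mean as a bar. The 3 lowest chip A probe sets, of Thrb and Dio3, lie at 0.743 or below on all 4 arrays, while the other 6 of that type straddle or exceed 1.

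Uptake was represented by Slco1c1, whose probe set had the highest mean of the 12. Its ratios were 0.9, 1.361, 1.747 and 1.112 in replicates 1 to 4, so replicate 1 lay below the reference and the others above it. The mean log2 ratio was 0.31 ± 0.41 and did not pass (limma adjusted p = 0.197), with a 95% interval of 0.931 to 1.66 for the ratio. Endothelial cells of the barrier also carry this transporter, and 13 of 15 chip A probe sets of an endothelial marker list (11 genes) likewise had their lowest value in replicate 1. Over all chip A probe sets replicate 1 had the lowest median ratio too, at 0.903 against 0.907 to 0.946. How many of all probe sets were lowest in replicate 1 was not counted, so the 13 of 15 have no share beside them. The summed ratio of the endothelial list was 10.7, 20.1, 18.0 and 16.9 in replicates 1 to 4. Its part in the Slco1c1 values was not tested. By calls, 1 of 12 endothelial genes over both array types, the glucose transporter gene Slc2a1, was higher than 1 (0.42), a call lost with a trended, robust prior (limma adjusted p = 0.071) and without replicate 2, 3 or 4 (0.112, 0.119 and 0.133).

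Slco1a4 and Slco1a5, other organic anion transporters that carry thyroid hormones, also varied between arrays. Slco1a4, a barrier transporter in rodents, had ratios of 0.788, 2.776, 2.563 and 1.455 in 1 probe set and 0.657, 2.008, 1.263 and 1.34 in the other, and neither passed (limma adjusted p = 0.124 and 0.429). In both, replicate 1 was again lowest and the only array below the reference. Slco1a5 had ratios of 10.5, 30.2, 2.41 and 20.5, the widest spread among the transporters. It was higher than 1 at 3.48 ± 1.61 (limma adjusted p = 0.00789) but did not stand above the panel level (0.0581). These genes are homologous, and whether their probe sets cross-hybridize was not tested.

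**Figure D2:**
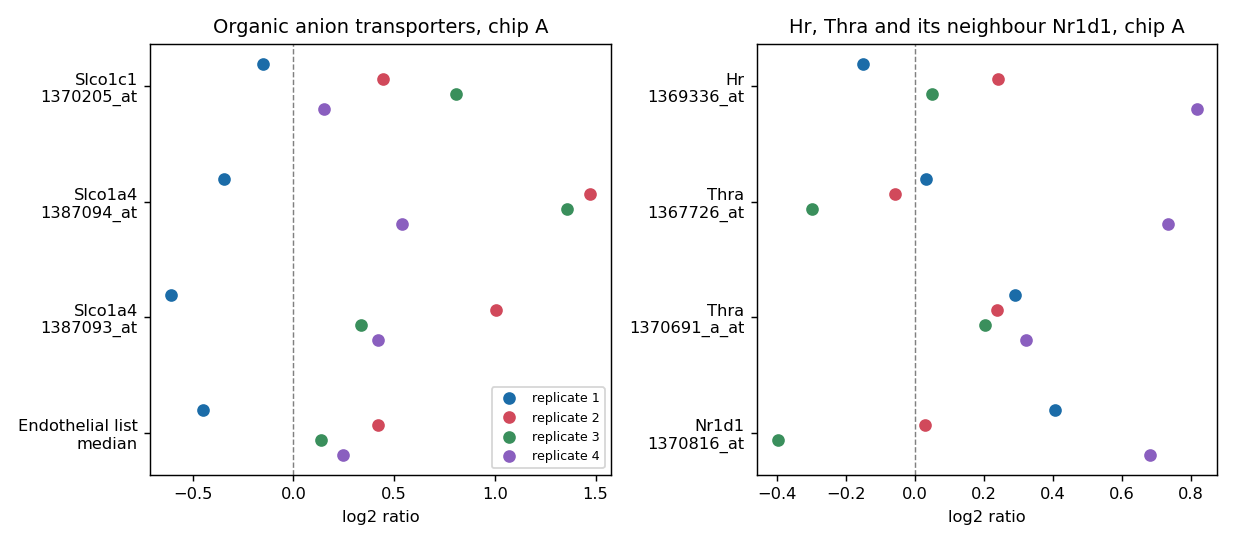
Log2 ratio on the 4 chip A arrays, coloured by replicate. Left, Slco1c1, both Slco1a4 probe sets and the median of the endothelial list, all lowest in replicate 1; right, Hr, both chip A probe sets of Thra, and Nr1d1, all highest in replicate 4.

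The activating deiodinase Dio2 was level with the reference. Its ratios of 0.962, 0.993, 1.046 and 0.932 gave -0.03 ± 0.07 (limma adjusted p = 0.788), with a 95% interval of 0.877 to 1.1 for the ratio. The spread was small, at percentile 13.9 of all chip A probe sets. In rodent brain Dio2 is made mainly by astrocytes and by the tanycytes of the third ventricle. In these samples 12 of 14 astrocyte marker genes had a probe set higher than 1, where 9.23% of all genes did, and the median log2 ratio of the list was 1.10. A lower probe set was found for 4 of the 14 (Sox9 at -1.73, Clu at -1.23, Gja1 at -0.65 and Slc1a3 at -0.28), where 37.7% of all genes had one. That of Slc1a3 was lost after centring (limma adjusted p = 0.0535) and without replicate 1, 2 or 4 (0.0873, 0.0724 and 0.0834). Of 9 genes of tanycytes, ependyma and choroid plexus, 2 were higher (Ttr and Folr1), 6 had no call, and 1 was lower, the tanycyte transcription factor gene Rax (-0.60 and -0.89). Their part in the Dio2 ratio was not tested.

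Dio2 also ran close to single probe sets of other genes, of another organ and of brain. Thyroglobulin (Tg), the hormone precursor of the thyroid gland, had ratios of 0.909, 0.968, 1.031 and 0.893 in 1 of its probe sets, close to those of Dio2 on every array. Both were highest in replicate 3, followed by replicates 2, 1 and 4 in that order. The other Tg probe set, at 0.913, 1.026, 1 and 0.891, was highest in replicate 2 and did not have it. Probe sets of brain genes had the same order. That of Gad2 had 0.936, 0.995, 1.032 and 0.929, and 1 of Mbp had 0.931, 0.994, 1.049 and 0.917. The other chip A probe set of Mbp, at 1.067, 0.947, 1.053 and 1.178, did not have that order. That order was found in 26.6% of 79 panel probe sets, in 37.0% of the 3570 chip A probe sets with an SD under 0.1 and in 6.05% of those with a larger SD. Whether Dio2 transcript was detected on these arrays cannot be told from ratios.

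The inactivating deiodinase Dio3 was lower than the reference on all 4 arrays. Ratios of 0.743, 0.609, 0.608 and 0.568 gave -0.67 ± 0.17 (limma adjusted p = 0.00262), a geometric mean ratio of 0.629 with a 95% interval of 0.54 to 0.732. Replicate 1 lay above the other 3, which spanned 0.568 to 0.609. Dio1, the liver and kidney deiodinase, was low too, at 0.529, 0.559, 0.566 and 0.521 (-0.88 ± 0.06, limma adjusted p = 0.000304). A low ratio was shared by a deiodinase known from brain and one known mainly from other organs.

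Crym, the cytosolic binding protein for triiodothyronine, straddled the reference. It had ratios of 1.208, 1.057, 0.833 and 1.151 (0.07 ± 0.24, limma adjusted p = 0.635), with a 95% interval of 0.872 to 1.27. Replicate 3 was the only array below 1.

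The receptor gene Thra gave 3 different pictures by probe set. On chip A, 1370691_a_at had ratios of 1.222, 1.179, 1.15 and 1.25, all above the reference and close together (0.26 ± 0.05, limma adjusted p = 0.0236). The call, at a geometric mean ratio of 1.2, was lost without replicate 1 (limma adjusted p = 0.0909), 2 (0.0737) or 4 (0.0886), and with a trended, robust prior (0.0915). The other chip A probe set, 1367726_at, had 1.023, 0.961, 0.813 and 1.663 (0.10 ± 0.44, limma adjusted p = 0.687). Its mean was carried by replicate 4, the other 3 lying from 0.813 to 1.023. On chip B, 1380518_s_at was low and even at 0.546, 0.539, 0.574 and 0.591 (-0.83 ± 0.06, limma adjusted p = 0.000245). The suffix _s_at marks probes that match more than 1 transcript in the manufacturer's naming, so this signal may not be of Thra alone.

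On the RefSeq assembly Thra overlaps Nr1d1, the gene of the clock repressor Rev-erb alpha, by 1061 bases on the opposite strand. The Nr1d1 probe set had ratios of 1.325, 1.02, 0.759 and 1.603 (0.18 ± 0.47, limma adjusted p = 0.498). As in 1367726_at of Thra, replicate 4 was highest, replicate 1 next, then replicate 2, and replicate 3 lowest. How many other chip A probe sets had this order was not counted. Probe positions were not used here, and whether either probe set reads the overlap was not tested.

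Thrb, the receptor gene that rises with brain maturation in rodents, was split by array type. On chip A both probe sets, designed from the same sequence record, were lower than 1 on all arrays. Probe set 1370474_at had 0.578, 0.622, 0.647 and 0.578 (-0.72 ± 0.08, limma adjusted p = 0.000742), and 1387983_at had 0.74, 0.628, 0.635 and 0.592 (-0.63 ± 0.14, limma adjusted p = 0.00231). Their geometric mean ratios were 0.606 and 0.647. On chip B the ratios were 1.126, 0.987, 1 and 1.011 for 1378457_at (0.04 ± 0.09, limma adjusted p = 0.573) and 1.087, 1.02, 0.847 and 1 for 1394456_at (-0.02 ± 0.15, limma adjusted p = 0.83). Each of the chip B pair held a ratio of exactly 1 on 1 array, as did 23.0% of chip B probe sets and 0.914% on chip A on at least 1 array. The chip A and chip B ranges of Thrb do not overlap, so the gene has no single ratio here, and the same holds for 1370691_a_at and 1380518_s_at of Thra.

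Hr, a corepressor gene that is a direct target of thyroid hormone in the rat brain, did not pass. Its ratios were 0.901, 1.183, 1.036 and 1.762 (0.24 ± 0.42, limma adjusted p = 0.317), with a 95% interval of 0.881 to 1.58. Replicate 4 stood out, and without it the mean log2 ratio was 0.05.

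Ordered by mean log2 ratio, the chip A probe sets fell into an upper 6 and a lower 3. Among the upper 6, from Slco1c1 down to Dio2, each overlapped its neighbour in range over the 4 arrays, as did those of the lower 3. Between Dio2, lowest at 0.932, and 1387983_at of Thrb, highest at 0.74, there was a gap. On chip B a gap of the same kind separated the lowest Thrb value, 0.847, from the highest Thra value, 0.591. Means of the upper 6 lay between percentiles 62.3 and 86.5 of chip A, and those of the lower 3 between 13.4 and 16.8.

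The 3 low chip A probe sets were ordinary among low ones. Their means of -0.63 to -0.72 lay around the median of the 4768 chip A probe sets called lower, which was -0.67, and 43.7% of these were lower still. Many low ratios were also even: 45.8% of the lower calls on chip A and 66.1% on chip B had an SD under 0.1. Thrb 1370474_at and Thra 1380518_s_at fell in that class, while 1387983_at and Dio3 did not.

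**Figure D3:**
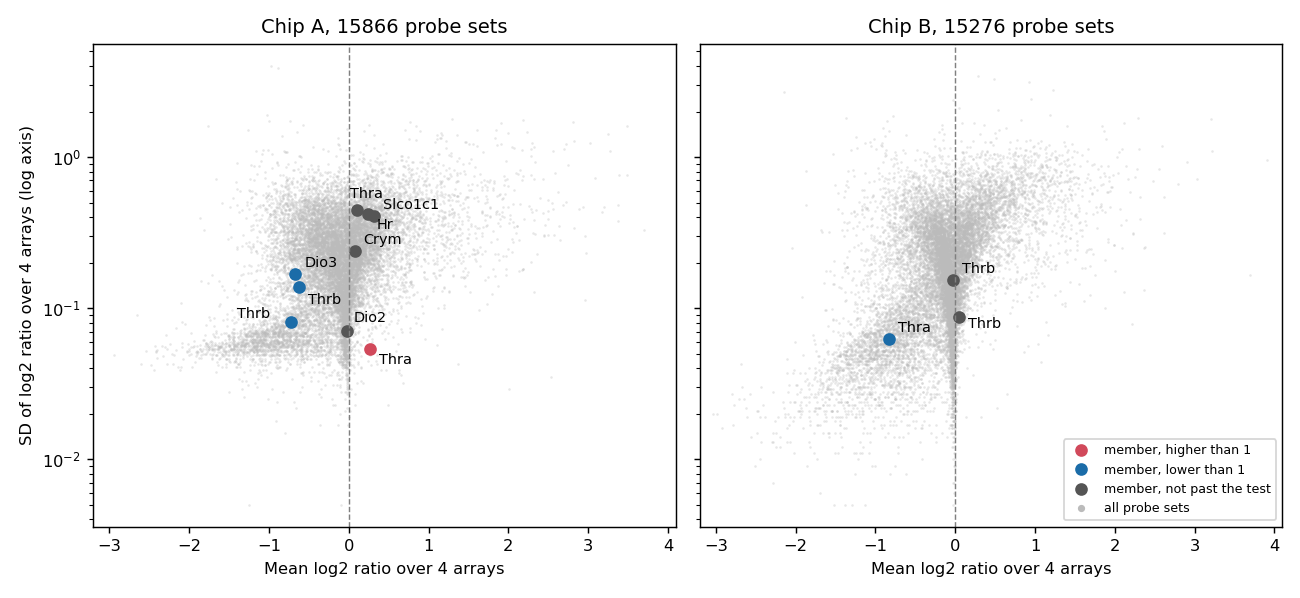
Mean log2 ratio over 4 arrays against its SD (log axis) for all non-control probe sets in grey, with the thyroid hormone probe sets coloured by call. The low members sit within the cloud of low ratios, at SDs from 0.06 to 0.17, and no member reaches the high ratios on the right of either array type. The few smallest SDs are drawn at the lowest position.

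By Euclidean distance of log2 ratios over the 4 arrays, few probe sets lay near that of Slco1c1 and many near those of Thrb. The distance was not scaled to the spread, and the probe sets differ in spread. On chip A the SD of Slco1c1 was at percentile 84.35 and that of Thrb 1370474_at at 17.29. The counts therefore do not set Slco1c1 apart. Within a distance of 0.3 of Slco1c1 there were 9 of 12782 single-gene probe sets of other genes on chip A, the nearest being Pdia3 (0.16), Fn1 (0.20) and Suox (0.22). Within the same distance of Thrb 1370474_at, the lowest on chip A, there were 577, led by Slco6b1, Agtr2 and Chrna5 (0.022 to 0.029). On chip B there were 667 of 7562 around Thrb 1378457_at, led by Itga6, Smyd4 and Ltk (0.035 to 0.053), and 343 of 7563 around Thra 1380518_s_at, led by Tspan32, Dnaaf9 and Hapln2 (0.028 to 0.034).

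The wider pathway was read through 5 lists of other thyroid hormone genes, 56 of 61 of which had a single-gene probe set. Counted by gene, 10 had higher calls alone, 16 lower calls alone, 1 both and 29 none. Among all 13810 genes 7.71% had higher calls alone and 36.1% lower calls alone.

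In transport, 3 of 8 genes were higher and 1 was lower, with a median log2 ratio of 0.26 over 10 probe sets. Besides Slco1a5, these were Ttr, the thyroxine carrier of choroid plexus and plasma, at 1.944, 2.293, 1.661 and 2.116 (0.99 ± 0.20, limma adjusted p = 0.000873), and Slc7a5, a large neutral amino acid transporter that also carries thyroid hormones, at 0.49 ± 0.27 (limma adjusted p = 0.0246, lost without replicate 1, 2 or 4 at 0.0817, 0.0741 and 0.0888). Choroid plexus epithelium is the main source of Ttr in brain, and its folate receptor gene Folr1 was higher too (0.97), though not without replicate 3 (limma adjusted p = 0.0515) or 4 (0.0924). Other genes of the same list had no call, at 0.30 ± 0.52 for Foxj1, -0.05 ± 0.11 for Kcnj13 and -0.01 ± 0.32 for Rarres2. Their part in the Ttr ratio was not tested. Slco4a1 was lower in both probe sets, at -1.19 ± 0.06 (limma adjusted p = 0.000138) and -0.31 ± 0.19 (0.0478), and the second call was lost after centring each array on its median (0.136), with a trended, robust prior (0.0539), and without replicate 1, 3 or 4 (0.153, 0.114 and 0.152). Slc3a2, the partner chain of Slc7a5, stood at 0.23 ± 0.29 and Slc7a8 at 0.14 ± 0.26 without passing.

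Among 7 genes of deiodination and its control, 3 were higher and 2 lower, with a median of 0.03 over 11 probe sets. Usp33, a deubiquitinase that stabilizes the Dio2 protein, had 3.892, 3.692, 2.084 and 2.496 on chip B (1.56 ± 0.44, limma adjusted p = 0.00312). It stood above the panel level (0.000359), which on chip B was carried over from chip A. Its chip A probe set, at 0.35 ± 0.35, did not pass (limma adjusted p = 0.115). Usp20, the other such deubiquitinase, was higher in 1 of 3 probe sets (0.36 ± 0.20, limma adjusted p = 0.0315), and Wsb1, part of the ligase that marks Dio2 for breakdown, was higher at 0.35 ± 0.22 (0.0438). Neither call held with a trended, robust prior (limma adjusted p = 0.0708 and 0.0851), and that of Wsb1 was lost when any 1 replicate was left out (0.0561 to 0.125). Usp20 was lost without replicate 1, 2 or 4 (0.108, 0.0988 and 0.0771). Besides Dio1, Sephs2, which makes the selenium donor for selenoproteins, was lower at -0.75 ± 0.27 (limma adjusted p = 0.00526). Secisbp2 (0.03 ± 0.21) and Selenop (0.03 ± 0.09 and -0.16 ± 0.14), also of selenoprotein supply, did not pass.

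Receptor partners and coregulators were mostly uncalled: 2 of 15 genes were higher, 4 were lower and 9 had no call, with a median of -0.06 over 33 probe sets. Nr2f1, an orphan receptor of the COUP-TF family, was higher at 2.013, 1.295, 1.561 and 1.989 (0.75 ± 0.31, limma adjusted p = 0.00745). The corepressor subunit gene Tbl1x was higher in 1 of 3 probe sets (0.25 ± 0.07, limma adjusted p = 0.0334), a call lost without any 1 replicate (0.0671 to 0.124). The coactivator genes Ncoa1 (-1.66 ± 0.05, limma adjusted p = 9.73e-05), Ncoa2 (-1.09 ± 0.06, 0.000163) and Med1 (-0.98 ± 0.05, 0.000131) each had 1 low and even probe set beside others that did not pass. After centring, 1 of the other Ncoa1 probe sets was higher (0.43, limma adjusted p = 0.0295). Trip11 was lower at -0.36 ± 0.10 (limma adjusted p = 0.00832). The retinoid X receptor genes, whose products pair with the thyroid hormone receptors, did not pass, at 0.13 ± 0.37 for Rxra, 0.08 ± 0.16 for Rxrb, and 0.15 ± 0.31 and -0.03 ± 0.05 for Rxrg. Among the corepressor complex genes, Gps2 stood at -0.30 ± 0.24, and the lowest probe sets of Tbl1xr1 and Ncor1 at -0.26 ± 0.41 and -0.19 ± 0.56, none of them past the test.

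Of 17 genes known to respond to thyroid hormone in rodent brain, 1 was higher, 3 were lower, 1 had both and 12 had no call, with a median of -0.02 over 28 probe sets. Reln, the reelin gene of early cortical and cerebellar neurons, was higher in both probe sets, at 7.326, 2.705, 2.915 and 3.847 in 1 (1.95 ± 0.65, limma adjusted p = 0.00266) and 1.62 ± 0.24 in the other (0.000238), and both stood above the panel level (0.0435 and 0.00907). Klf9, a transcription factor gene and direct target, was higher in 1 probe set, at 1.787, 1.977, 1.147 and 2.331 (0.81 ± 0.44, limma adjusted p = 0.0169), and lower in 2 others (-1.39 ± 0.04 and -1.63 ± 0.15). Without replicate 1 or 4 the higher Klf9 call did not hold, at limma adjusted p-values of 0.0532 and 0.0555. Lower were Camk4, a neuronal kinase gene (-0.98 ± 0.05 and -0.83 ± 0.21), and 1 of 3 probe sets each of Dab1 (-1.38 ± 0.05) and Thrsp (-0.61 ± 0.18), with limma adjusted p from 6.89e-05 to 0.0046.

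The myelin genes of that list, which rise with thyroid hormone during oligodendrocyte maturation, were not past the test. Mbp stood at 0.08 ± 0.13, -0.04 ± 0.09 and -0.07 ± 0.35, Mog at 0.22 ± 0.33 and Mag at 0.43 ± 0.36 (limma adjusted p = 0.0702, or 0.0466 after centring, where it was higher). Nrgn, the neurogranin gene and a classical target in rat forebrain, ran from 0.529 in replicate 1 to 2.155 in replicate 4 (0.39 ± 0.93). Rasd2, a striatal target also called Rhes, stood at -0.43 ± 0.38 and -0.06 ± 0.06 without passing.

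Some genes of the thyroid gland and its axis, not expected in glia, held low ratios as well. Of 9 genes 6 were lower, where 36.1% of all genes had lower calls alone, 1 was higher and 2 had no call. The median was -0.08 over 13 probe sets, beside -0.11 over all probe sets of either array type, so the list's typical probe set was not low. Tshb, the pituitary thyrotropin subunit, had 0.633, 0.62, 0.643 and 0.634 (-0.66 ± 0.02, limma adjusted p = 0.000695), within the range of the low Thrb and Dio3 probe sets. Duox2 (-1.07 ± 0.06), Iyd (-1.03 ± 0.07), Pax8 (-0.67 ± 0.07), Trh (-0.33 ± 0.07) and Trhr (-1.50 ± 0.06) were lower as well, Pax8 and Trhr in 1 probe set each, with limma adjusted p from 0.000102 to 0.0122. The call of Trh was lost without replicate 1 (0.0554) or 4 (0.0532). The iodide transporter gene Slc5a5 was higher at 1.876, 3.752, 1.538 and 2.394 (1.17 ± 0.55, limma adjusted p = 0.00974) without standing above the panel (0.191). Tshr stood at 0.23 ± 0.30 without passing.

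**Figure D4:**
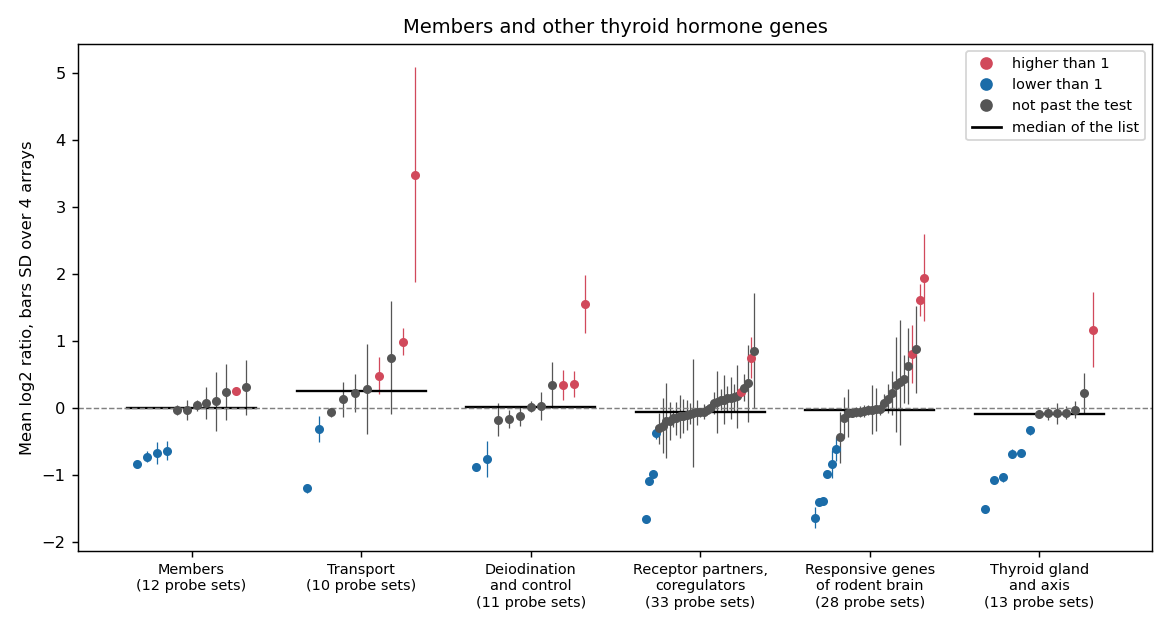
Mean log2 ratio of each probe set of the 7 genes and of the 5 wider lists, bars SD over 4 arrays, coloured by call against a ratio of 1, with the list's median as a line. The members span -0.83 to 0.31, a narrower range than any of the wider lists.

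Over the arrays as a whole, r between replicates, across probe sets, lay between 0.716 and 0.792 for chip A and between 0.71 and 0.786 for chip B. Median ratios per array ran from 0.888 to 0.967, so centring each array on its median added 0.12 on chip A and 0.10 on chip B to log2 ratios on average. With centring 33.7% of calls on chip A were higher instead of 23.5%, and on chip B 19.3% instead of 15.8%. No member's call changed under centring, though the uncalled means of Dio2 and of Thrb 1394456_at turned positive (0.0925 and 0.0815). By marker lists, astrocyte genes had 9 of 14 with higher calls alone, 1 with a lower call alone and 3 with both. Oligodendrocyte lineage genes had 1 higher of 13 (Pdgfra, lost without replicate 1, 3 or 4 at limma adjusted p = 0.0816, 0.11 and 0.119). Another 3 were lower, Olig2, Cldn11 and Ugt8, each in 1 of 2 probe sets. That of Ugt8 was lost after centring (limma adjusted p = 0.0706) and without replicate 1, 2 or 4 (0.107, 0.0798 and 0.0982). The other Cldn11 probe set was higher after centring (0.28, limma adjusted p = 0.0492). Neuronal genes had 5 higher, 1 lower and 2 both of 12, and microglial genes 3 lower (C1qa, C1qb and Itgam) and 5 uncalled of 8. The ependymal, tanycyte and choroid plexus list, which holds Crym, had 2 higher and 1 lower of 9. Among all genes 7.71% had higher calls alone and 36.1% lower calls alone. All 3 microglial calls were lost after centring (limma adjusted p from 0.0866 to 0.0977) and without replicate 1, 2 or 4 (from 0.0525 to 0.134).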

How the data were processed

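Total RNA from a Qiagen kit was labelled for small amounts of material, per the labels' protocols. The submitters' processing notes name RMA without a version. The deposited values were taken to be linear ratios per probe set, and neither their reference nor the steps from signal to ratio are stated.

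Ratios were put on the log2 scale. Control probe sets, 57 on each array type, were left out, which left 15866 and 15276. Gene names came from GEO's platform annotation: 12783 and 7564 probe sets had 1 symbol, 312 and 100 several, and 2771 and 7612 none. Of those with 1 symbol, 12748 and 7524 matched a RefSeq gene ID of GRCr8, with 0 symbols updated. R 4.3.3 and limma 3.58.1 were used (an intercept and eBayes, with 2.31 and 1.52 prior degrees of freedom). The panel of genes from other organs had 79 probe sets on chip A. Chip B had 2, so each chip B array took over the level of the chip A array of its number, moved by their median difference across 157 probe sets on both types, controls included. Panel levels lay at ratios from 1.11 to 1.45. A gene counted as called if any of its probe sets was, and a list's median is over probe sets. Named were all members, every called gene of the pathway lists, up to 3 uncalled ones per list, and the 3 nearest neighbours of the highest and the lowest member per array type. Other genes were named after their values were seen: Rxra, Rxrb, Rxrg, Mbp and Mog from the pathway lists, Nr1d1 for its position, and Slc2a1, Folr1, Foxj1, Kcnj13, Rarres2, Rax, Pdgfra, Olig2, Cldn11, Ugt8, Gad2, Sox9, Clu, Gja1, Slc1a3, C1qa, C1qb and Itgam from the marker lists. The fit was also run on simulated data, independent noise around a ratio of 1 with some shifted probe sets added. The real arrays have median ratios below 1, so no conclusion is drawn from that run here. Members and lists were chosen with earlier results of these data known. The p-values measure the spread between these 4 replicates, whose number limits the precision. Promoters were RefSeq's, and 3 of the 7 genes (Dio2, Dio3 and Thrb) are printed. No promoter window was available for Slco1c1, Hr and Crym. That of Klf9 was searched as well and held TATAAA and AGGTCA 0 times each.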

Additional observations from a re-analysis of the deposited data

Results flagged for a closer look

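Among 107 probe sets of the members and the pathway lists, 5 had 1 array far from the other 3 by Dixon's gap test, a rate that chance gives in about 1 of 20. None was a member. Trhr 1369751_at had 1.002 in replicate 2 against 0.92 to 0.934 elsewhere. Slc3a2 had 0.871 in replicate 1 against 1.257 to 1.331. On chip B, Pax8 1378692_at had 0.675 in replicate 4 against 0.604 to 0.615, Ncor1 1392175_at had 1.281 in replicate 2 against 0.803 to 0.849, and Trip11 had 0.86 in replicate 2 against 0.74 to 0.759.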

How the results depend on the processing

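The alternatives were centring, a trended, robust prior, log2(ratio + 0.1), testing single-gene probe sets alone, leaving out each replicate and, for the panel level, its maximum and its 90th percentile. The 4 lower calls of Dio3, Thrb and Thra held under all that apply to them, and no member stood above the panel level under any. The number of members higher on chip A was 0 with the trended, robust prior and 0 to 1 with a replicate left out. Leaving out a replicate gave 6 to 9 pathway genes with higher calls alone, against 10, and 6 without replicate 4. Uncalled means turned in sign for Thra 1367726_at (-0.11 to 0.24 with a replicate left out), Thrb 1378457_at (-0.001 to 0.0623), Thrb 1394456_at (-0.0703 to 0.0496, and 0.0815 after centring) and Dio2 (0.0925 after centring). The cause was not tested. Of 106 values of members under alternatives, 97 kept direction and side of the threshold, 4 lost the call, all of Thra 1370691_a_at, and 5 turned in sign. A fit without probe sets that hold exactly 1, added after seeing the data, left out both chip B probe sets of Thrb and changed no other member's call. Probe sets above the panel level numbered 287 on chip A and 430 on chip B, but 107 and 40 with the trended, robust prior, 127 and 49 with the panel's maximum, 553 and 726 with its 90th percentile, and 80 and 115 without replicate 4. On chip B it was 767 without replicate 3. Whether Usp33 and Reln stayed above the panel level under these settings is not reported here. Tested on single-gene probe sets alone, 289 were higher on chip B against 776, and 136 above the panel level, since fewer were tested. Medians over 4 arrays in place of means moved each member's value by less than its SD, but turned the sign of Thra 1367726_at (-0.012, against 0.10) and Thrb 1394456_at (0.014, against -0.02), which put Crym above that Thra probe set and Thrb 1394456_at above Thrb 1378457_at (0.0079).

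No paired analysis was possible because the series holds 1 cell population and no test compared the array types. Replicate numbers were taken to name the same samples on both types. Deviations from the mean over 100 shared probe sets correlated at 0.736 to 0.823 per number. Correlations between unlike numbers were not examined. Ratios without signal over background leave detection of every member unknown.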
